A study of Mus musculus with 12 samples.

Results

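The genes of the major histocompatibility complex (MHC) that build, load and control class I and class II molecules were followed in 2 tissues of the mouse trigeminal pain pathway. They were taken by name, with no measured value: every gene of the protein-coding table whose symbol starts with H2-, which gave 34 genes, and 5 more, B2m, Tapbp, Nlrc5, Cd74 and Ciita. These 39 genes, of 21981 in all, held 79 of the table's 57109 transcripts. The symbol also takes in H2-Ke6, an enzyme gene that lies in the complex but makes no MHC molecule. That gene is described apart below, but counts over the set take it in unless stated.

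RNA depleted of ribosomal RNA was sequenced from trigeminal ganglia (TG), where the cell bodies of the sensory neurons of face and jaw lie, and from the brainstem nucleus those neurons signal pain to, the spinal trigeminal nucleus caudalis (Sp5C). All animals were wild-type C57BL/6 mice, an inbred laboratory strain, aged 8 weeks, and the study as a whole concerns chronic inflammation and pain of the temporomandibular joint. The 4 groups of 3 libraries are STG, CTG, SSp5C and CSp5C, and differences between letters are given as C minus S because the labels do not explain either letter. Nothing in the labels says that libraries came from separate animals. The p-values therefore set a difference only against the spread among these samples, and that spread may be technical. The values are FPKM (fragments scaled to transcript length and to library size), so levels of different genes can be set side by side per length, but the read depth behind them is unknown.

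Class I molecules sit on almost every nucleated cell and show peptides from inside the cell to CD8 T cells. Each joins a heavy chain to the small chain beta-2 microglobulin (B2m). The tapasin protein (Tapbp) helps to load the peptide, and the factor NLRC5 (Nlrc5) drives transcription of the class I genes. Class II molecules, made mainly by macrophages, dendritic cells and B cells, show peptides from engulfed material to CD4 T cells. Their alpha and beta chains assemble on the invariant chain (Cd74), H2-DM swaps its remnant for a peptide, and the factor CIITA (Ciita) switches the whole set on. Healthy neurons carry little of either class, while microglia, the macrophages of the brain, and macrophages of the ganglion can carry both.

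The promoters of both classes are known to share one composite element, in which an X box that resembles a cAMP response element stands a fixed distance before a Y box, an inverted CCAAT sequence. RefSeq promoter windows (GRCm38.p6, 250 bases before to 50 bases after a gene's start) matched 33 of the 39 genes; that of Cd74 was not searched. The pattern TGANG, then 15 to 25 bases, then ATTGG, read along the gene's own strand, was found in 13 of the 33, against 1.61% of all 32851 windows. The allowed spacing was chosen after the windows had been seen, so this contrast is a description. Among the 16 matched genes that were tested between tissues, 10 held the pattern (B2m, H2-Aa, H2-D1, H2-DMb1, H2-Eb1, H2-K1, H2-M3, H2-Q4, H2-Q6 and H2-Q7), and H2-DMa, H2-Ke6, H2-Q2, H2-T22, H2-T23 and Tapbp did not in these windows. The stretches around it are shown for 8 genes that carry the results on levels, 5 of class I and 3 of class II. Capitals mark the TGANG and ATTGG matches.
B2m: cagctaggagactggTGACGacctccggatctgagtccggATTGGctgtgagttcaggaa
H2-D1: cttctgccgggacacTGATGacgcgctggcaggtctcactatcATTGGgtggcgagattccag
H2-K1: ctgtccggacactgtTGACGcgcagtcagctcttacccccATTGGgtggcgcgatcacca
H2-Q4: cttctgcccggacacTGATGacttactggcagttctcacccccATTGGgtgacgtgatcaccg
H2-M3: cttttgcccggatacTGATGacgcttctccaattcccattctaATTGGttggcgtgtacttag
H2-Aa: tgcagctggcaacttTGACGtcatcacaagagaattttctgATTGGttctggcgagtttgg
H2-Eb1: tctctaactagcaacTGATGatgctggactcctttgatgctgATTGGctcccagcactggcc
H2-DMb1: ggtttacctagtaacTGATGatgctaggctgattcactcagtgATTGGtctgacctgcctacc

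In build GRCm38.p6 the capitals lie upstream of the RefSeq start sites of these windows. The H2-K1 stretch reaches past another RefSeq start of that gene, though its capitals do not. The GENCODE vM21 annotation starts H2-D1 and H2-DMb1 further upstream, so there their stretches lie inside the genes. The stretch of B2m is chr2:122147594-122147653 on the plus strand. On chromosome 17, the plus-strand stretches are chr17:35262975-35263037 (H2-D1), chr17:35379495-35379557 (H2-Q4), chr17:37270170-37270232 (H2-M3), chr17:34305766-34305827 (H2-Eb1) and chr17:34153087-34153149 (H2-DMb1). The minus-strand stretches are chr17:34000344-34000403 (H2-K1) and chr17:34287852-34287912 (H2-Aa). The gap between the boxes was 20 bases in B2m and H2-K1, 21 in H2-Aa, 22 in H2-Eb1 and 23 in the other four. A second pattern, TTTCNNTTC, which resembles the element bound by interferon-activated factors, was searched on both strands. It was found in the windows of 6 of the 16 tested genes, all of them class I heavy chains (H2-D1, H2-K1, H2-M3, H2-Q4, H2-Q6 and H2-Q7), and in 7.52% of all windows. A form longer by a single base was not searched. The windows of H2-T22 (tttcactttc) and H2-T23 (tttctctttc) hold it, and that of B2m holds its reverse complement (gaaactgaaa). A window without the shorter pattern may therefore still hold such an element.

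In the GENCODE vM21 annotation of GRCm38, 35 of the 39 genes lay on chromosome 17 between bases 33915899 (Tapbp) and 37483552 (H2-M2). The other four are B2m on chromosome 2, Nlrc5 on chromosome 8, Ciita on chromosome 16 and Cd74 on chromosome 18. Many class I genes are close copies, and reads from one can be given to another. Of all stretches of 50 bases in the transcripts of H2-T22, 43.9% also occurred in another gene's transcripts, and the share was 34.9% for H2-Q7, 32.0% for H2-Q6, 28.8% for H2-T23, 24.3% for H2-Q4, 22.3% for H2-Q1, 16.1% for H2-Q2, 13.9% for H2-D1 and 7.63% for H2-K1. H2-DMb1 shared 27.2% with H2-DMb2, and H2-Ke6 shared 76.7% with an overlapping gene model, Gm20427. The values of these genes are uncertain by an amount the deposited values do not show. No stretch of B2m, Nlrc5, Cd74, Ciita, H2-Aa, H2-Ab1, H2-Eb1 or H2-DMa was shared.

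The tissue labels matched the markers of each tissue: summed FPKM of 6 ganglion genes was 3744 to 4727 in TG and 23.96 to 42.4 in Sp5C, and that of 6 genes of the brainstem nucleus was 5.61 to 16.7 in TG and 625 to 699 in Sp5C. STG replicate 1 stood apart with pituitary hormone genes (summed FPKM of 7 genes 2865, against 2.57 to 51.6 in the other TG libraries), and CTG replicates 1 and 3 with neutrophil and bone marrow genes (874 and 292 over 10 genes, against 3.97 to 33.6). No 2 libraries were copies, since at most 0.0115% of values above 0 were identical in any pair.

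RNA of the MHC genes spanned a wide range of levels. The highest TG mean was that of B2m (280 FPKM), followed by the classical heavy chain H2-D1 (115.5), Cd74 (52.4) and Tapbp (39.1). Over all 12 libraries 21 genes had a mean FPKM of at least 1 and entered the tissue test, 18 did not, and 5 of those 18 (H2-M1, H2-M10.1, H2-M10.3, H2-M10.5 and H2-M10.6) were listed at 0 in every library. H2-M10 genes are known from the vomeronasal organ. The other low genes with their highest single values were H2-T3 (0.0318), H2-M10.4 (0.0240), H2-M11 (0.0363), H2-M10.2 (0.0799), H2-M2 (0.103), H2-M9 (0.111), H2-Ob (0.174), H2-Oa (0.215), H2-Q10 (0.298), H2-M5 (0.360), H2-Eb2 (0.556), H2-DMb2 (1.93) and Ciita (2.07).

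**Figure D1:**
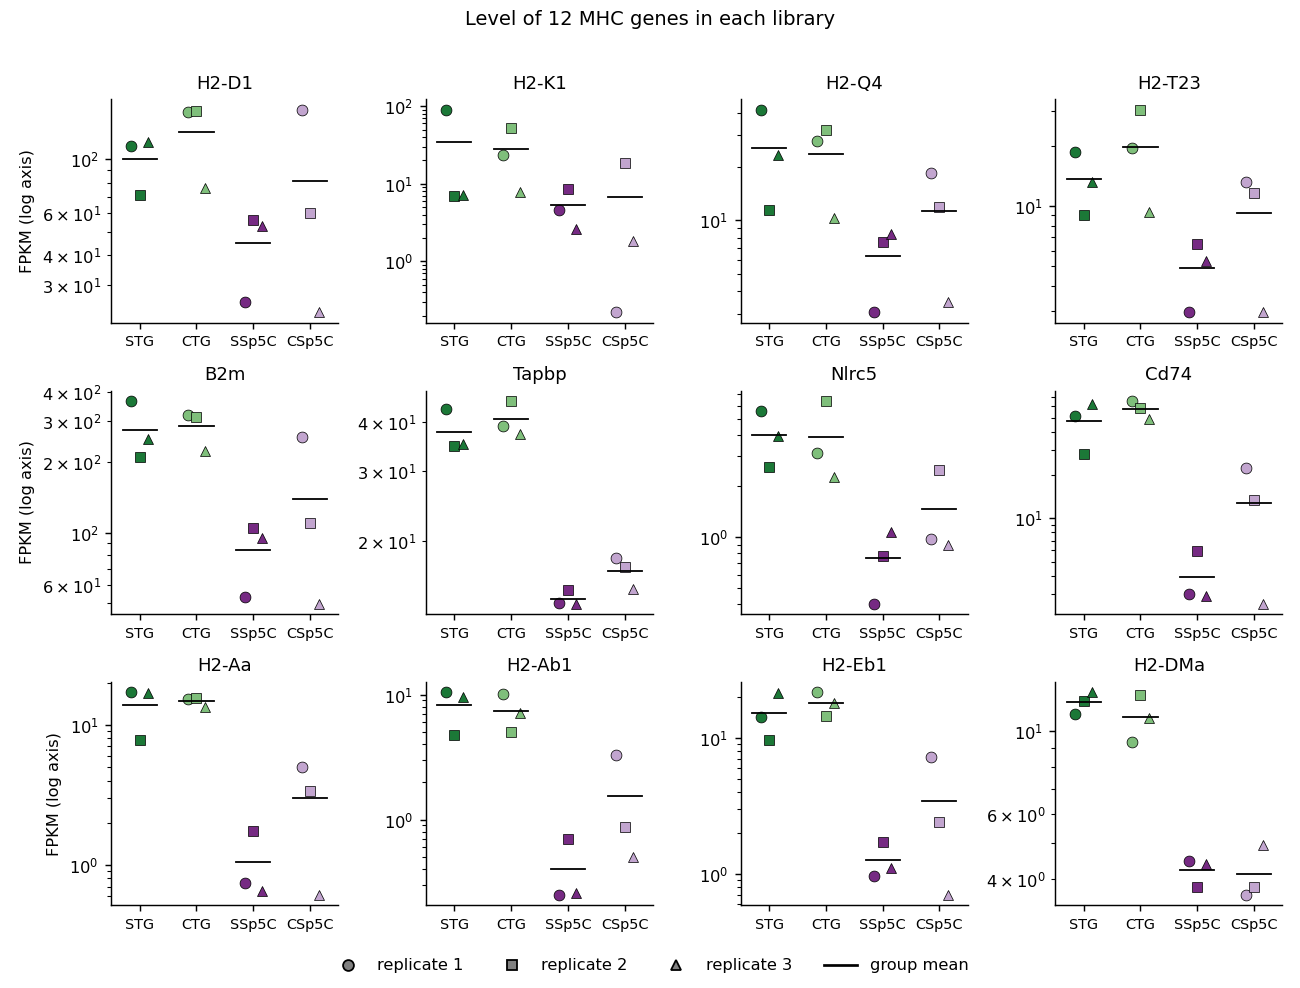
FPKM on a log axis (its range differs between panels) of 12 MHC genes in each of 12 libraries, by group, with the replicate number as symbol and the group mean as a line. The TG and Sp5C libraries of Tapbp, Cd74, H2-Aa, H2-Ab1, H2-Eb1 and H2-DMa do not overlap, and CSp5C replicate 1 stands among the TG libraries for B2m, above them all for H2-D1 and lowest for H2-K1.

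The comparison of TG with Sp5C sets the peripheral ganglion beside its central target, over both letters. Every tested class II gene was called higher in TG, but only part of the class I genes. In all, 15 of the 21 genes tested were called higher, 1 was called lower (H2-Q2), and 5 were not called (limma, adjusted p threshold 0.05 over 13081 genes). Of all genes tested, 36.2% were called higher and 35.0% lower. The median difference was 1.24 over the 21 genes of the set, H2-Ke6 included, and 0.01 over all genes, on the log2(FPKM + 1) scale used for every difference here, which understates the change of low genes. Adding the S and C libraries of a tissue together leaves 6 against 6, and 7 genes had every TG library above every Sp5C library, as did 27.6% of all genes, with 26.1% wholly below and 53.7% not overlapping in either direction. These were Cd74, H2-Aa, H2-Ab1, H2-Eb1, H2-DMa, H2-DMb1 and Tapbp. In bulk tissue, more cells of a type and more RNA per cell cannot be told apart.

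Among the 21 genes tested, the 5 highest ratios of mean FPKM in TG over Sp5C belonged to class II genes: H2-DMb1 (8.75), H2-Ab1 (8.07), H2-Aa (7.04), H2-Eb1 (7.02) and Cd74 (6.26). Cd74, the invariant chain, read 51.6, 28.2 and 62.0 FPKM in STG, 65.3, 58.4 and 48.7 in CTG, 3.00, 5.94 and 2.90 in SSp5C, and 22.4, 13.3 and 2.56 in CSp5C. The lowest TG library (STG replicate 2) was above the highest Sp5C library (CSp5C replicate 1). Its mean was 52.4 ± 13.4 against 8.36 ± 8.00 (SD, n = 6 libraries per tissue), with a log2 difference of 2.86 ± 0.42 (SE, limma adjusted p = 0.000113).

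H2-Aa, the alpha chain of I-A, read 17.04, 7.76 and 16.8 FPKM in STG, 15.2, 15.4 and 13.4 in CTG, 0.748, 1.76 and 0.653 in SSp5C, and 5.03, 3.38 and 0.608 in CSp5C. Its partner H2-Ab1, the beta chain, read 10.42, 4.76 and 9.62 in STG, 10.15, 5.04 and 7.14 in CTG, 0.249, 0.696 and 0.261 in SSp5C, and 3.26, 0.866 and 0.503 in CSp5C. Neither gene's tissues overlapped, and both had their lowest TG value in STG replicate 2 and their highest Sp5C value in CSp5C replicate 1. The log2 differences were 2.49 ± 0.32 for H2-Aa (SE, limma adjusted p = 3.98e-05) and 2.26 ± 0.28 for H2-Ab1 (limma adjusted p = 2.8e-05).

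H2-Eb1 codes for the beta chain of I-E, which C57BL/6 mice do not put on the cell surface because their alpha chain gene is defective. Its RNA was nevertheless as high per length as that of H2-Aa: 14.2, 9.71 and 21.4 FPKM in STG, 21.6, 14.6 and 17.9 in CTG, 0.966, 1.72 and 1.11 in SSp5C, and 7.24, 2.42 and 0.698 in CSp5C. The tissues did not overlap, with a log2 difference of 2.58 ± 0.34 (SE, limma adjusted p = 4.96e-05). The second E beta gene, H2-Eb2, reached at most 0.556 FPKM in any library.

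H2-DMa and H2-DMb1 code for the alpha and beta chains of H2-DM. H2-DMa was steady within each tissue, at 11.1, 12.04 and 12.7 FPKM in STG, 9.36, 12.5 and 10.9 in CTG, 4.47, 3.81 and 4.40 in SSp5C, and 3.62, 3.81 and 4.95 in CSp5C, and its log2 difference was 1.26 ± 0.08 (SE, limma adjusted p = 7.27e-08). H2-DMb1 ranged from 1.15 to 6.66 FPKM in TG with a median of 2.47, and from 0.0392 to 0.733 in Sp5C with a median of 0.395. It did not overlap between tissues either (log2 difference 1.47 ± 0.24, limma adjusted p = 0.000187). All 6 tested class II chains and partners were thus called higher in TG. The H2-O chains, which restrain H2-DM mainly in B cells, were near 0 in both tissues, with tissue means of 0.0549 and 0.113 FPKM for H2-Oa and 0.123 and 0.113 for H2-Ob in TG and Sp5C.

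Ciita, the class II transactivator, lay under the filter with a mean of 0.656 FPKM over all libraries. It read 1.02, 0.799 and 1.15 in STG, 1.07, 2.07 and 0.945 in CTG, 0.0395, 0.0686 and 0.130 in SSp5C, and 0.164, 0.355 and 0.0566 in CSp5C, so its tissues did not overlap. Without the filter on low values, 34 genes of the set could be tested, and 18 were higher and 1 was lower in TG, against 30.6% and 28.1% of all genes. Ciita was among the higher ones with a log2 difference of 0.92 ± 0.11 (SE, limma adjusted p = 3.82e-05). The 18 also take in H2-M9 and H2-M10.2, each listed at 0 in 8 of the 12 libraries and reaching at most 0.111 and 0.0799 FPKM.

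Per length, the ratio of Cd74 to the sum of the class II chains was 1.35 ± 0.16 in TG against 1.54 ± 0.23 (SD, n = 6 libraries per tissue) for Sp5C, while that sum itself was 38.8 ± 9.55 FPKM in TG and 5.38 ± 5.36 in Sp5C. The means of that ratio lay far closer together than the levels themselves.

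B2m, the light chain of every class I molecule, read 364, 210.2 and 250.4 FPKM in STG, 319, 311 and 223 in CTG, 53.0, 105 and 94.5 in SSp5C, and 257, 109.8 and 49.7 in CSp5C. Only CSp5C replicate 1 reached into the TG range. Its mean was 280 ± 61.0 against 111 ± 75.7 (SD, n = 6 libraries per tissue), a ratio of 2.51 with a log2 difference of 1.52 ± 0.36 (SE, limma adjusted p = 0.0031).

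H2-D1, one of the 2 classical heavy chains of this strain, read 113, 71.2 and 118 FPKM in STG, 157, 158 and 75.9 in CTG, 25.6, 56.0 and 52.8 in SSp5C, and 161, 60.1 and 23.1 in CSp5C. The tissues overlapped through CSp5C replicate 1, which was the highest of all 12 libraries. The log2 difference was 1.10 ± 0.43 (SE, limma adjusted p = 0.0418), and it missed the threshold when any of 8 of the 12 libraries was left out in turn (adjusted p 0.00380 to 0.0918 over the 12 refits) and with the replicate number as a block (adjusted p = 0.0546).

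H2-K1, the other classical heavy chain, varied far more: 90.2, 7.01 and 7.24 FPKM in STG, 23.7, 52.1 and 7.92 in CTG, 4.58, 8.61 and 2.65 in SSp5C, and 0.220, 18.4 and 1.85 in CSp5C. Its highest libraries were STG replicate 1 and CTG replicate 2, and its lowest was CSp5C replicate 1, in which H2-D1 was at its highest. The log2 difference between tissues was 2.06 ± 0.83 (SE, limma adjusted p = 0.0468), with a 95% interval from 0.20 to 3.93, and it too missed the threshold when any of 8 of the 12 libraries was left out (adjusted p 0.0113 to 0.108), with no filter (0.0544) and with the highest transcript only (0.0967). A pair of H2-K1 transcripts carried nearly all of its FPKM, except in CTG replicate 3 where another read 2.42, and the pair did not keep one ratio: in STG replicate 1 they read 48.8 and 40.4, in CTG replicate 1 0.439 and 23.2, and in CTG replicate 2 39.7 and 12.4.

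H2-D1 and H2-K1 were also taken as shares of all class I heavy chain FPKM. Both are parts of one sum, so a rise of H2-K1 lowers the share of H2-D1 by construction. In STG replicate 1, where H2-K1 was highest, H2-D1 read 113 FPKM, within its TG range of 71.2 to 158. H2-D1 held 51.0% ± 9.06 and H2-K1 11.03% ± 9.14 in TG, whereas their sum held 62.1% ± 1.599 (SD, n = 6 libraries). In Sp5C the shares were 53.4% ± 7.77, 6.203% ± 4.69 and 59.6% ± 3.93 in the same order. In STG replicate 1 H2-D1 had its lowest share of the TG libraries (35.0%) and H2-K1 its highest (27.8%). Of the 50-base stretches of H2-K1, 6.03% also occurred in H2-D1; whether reads were divided differently between them was not tested.

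The tissues overlapped for every nonclassical heavy chain that was tested. H2-Q4, a gene of the Q region, read 41.7, 11.4 and 23.4 FPKM in STG, 28.0, 32.1 and 10.27 in CTG, 3.04, 7.54 and 8.34 in SSp5C, and 18.4, 11.8 and 3.46 in CSp5C, and was called higher in TG (log2 difference 1.44 ± 0.46, limma adjusted p = 0.017). H2-T23, which codes for Qa-1, the ligand of an inhibitory receptor of natural killer cells, ranged from 9.01 to 30.5 in TG and from 2.94 to 13.2 in Sp5C (log2 difference 1.20 ± 0.38, limma adjusted p = 0.0165). H2-T22, a ligand of some gamma delta T cells, ranged from 8.97 to 19.7 in TG and from 4.21 to 12.5 in Sp5C (log2 difference 0.79 ± 0.27, limma adjusted p = 0.0227). H2-M3, which presents formylated bacterial peptides, ranged from 2.08 to 3.70 in TG and from 0.743 to 2.47 in Sp5C (log2 difference 0.62 ± 0.14, limma adjusted p = 0.00205). These 4 genes were higher in TG, but H2-T22 missed the threshold when any of 4 of the 12 libraries was left out (highest adjusted p 0.0545).

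H2-Q7, which codes for Qa-2, and its close copy H2-Q6 were not called. H2-Q7 ranged from 4.42 to 21.8 FPKM in TG and from 1.57 to 12.3 in Sp5C (log2 difference 1.06 ± 0.51, limma adjusted p = 0.0834), and it was called without CTG replicate 3 (adjusted p = 0.0237) or without CSp5C replicate 1 (0.0486). H2-Q6 ranged from 4.69 to 18.1 and from 1.22 to 14.1 (0.89 ± 0.54, limma adjusted p = 0.163). H2-T24 (log2 difference 0.41 ± 0.19, limma adjusted p = 0.0794; 0.0195 without CTG replicate 3 and 0.0482 without CSp5C replicate 2, and 0.037 with the replicate block) and H2-Q1 (0.28 ± 0.39, limma adjusted p = 0.536) were not called either. The 95% intervals of these 4 genes reached up to 2.19, 2.08, 0.84 and 1.16, so all 4 intervals take in differences as large as those of some genes that were called, such as H2-M3.

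H2-Q2 ran the other way, at 0.656, 0 and 0 FPKM in STG, 1.47, 0.03997 and 1.40 in CTG, 1.10, 1.58 and 1.98 in SSp5C, and 2.41, 1.91 and 0.922 in CSp5C. It was lower in TG with a log2 difference of -0.82 ± 0.25 (SE, limma adjusted p = 0.0118), and the tissues overlapped. Its levels were close to the filter of 1 FPKM, and the call was lost with the C libraries alone (adjusted p = 0.273). H2-Ke6, the enzyme gene, was level between tissues, at 8.77 ± 0.68 FPKM against 8.97 ± 0.78 (SD, n = 6 libraries per tissue, limma adjusted p = 0.704).

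Tapbp, the tapasin gene, was the steadiest of the class I genes: 43.1, 34.8 and 35.1 FPKM in STG, 39.2, 45.2 and 37.4 in CTG, 14.0, 15.1 and 13.9 in SSp5C, and 18.1, 17.1 and 15.2 in CSp5C. The tissues did not overlap, with a log2 difference of 1.28 ± 0.07 (SE, limma adjusted p = 1.44e-08). Nlrc5, the class I transactivator, read 5.54, 2.59 and 3.97 in STG, 3.16, 6.38 and 2.26 in CTG, 0.403, 0.777 and 1.07 in SSp5C, and 0.978, 2.49 and 0.902 in CSp5C (log2 difference 1.24 ± 0.24, limma adjusted p = 0.00076). Its tissues overlapped through CSp5C replicate 2 alone. Per length, the ratio of B2m to the sum of class I heavy chains was 1.29 ± 0.33 in TG against 0.999 ± 0.13 (SD, n = 6 libraries per tissue) for Sp5C.

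**Figure D2:**
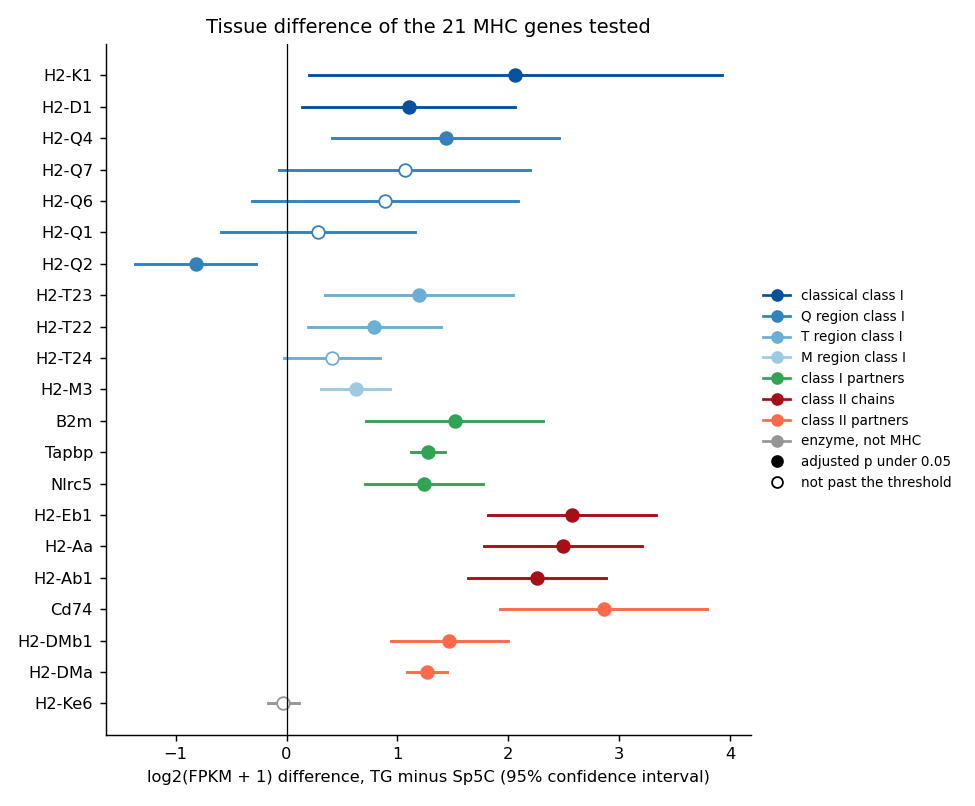
Log2(FPKM + 1) difference, TG minus Sp5C, with its 95% confidence interval for the 21 genes of the set that were tested, H2-Ke6 included, coloured by role; filled points passed the adjusted p threshold of 0.05. The class II chains lie between 2.26 and 2.58 with narrow intervals compared with H2-K1, and H2-Q2 is the one gene called lower.

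By role, the median log2 difference was 2.49 over the 3 class II chains, 1.58 over the 2 classical class I chains, 1.47 over the 3 class II partners, 1.28 over the 3 class I partners, 0.89 over 5 Q region genes and 0.79 over 3 T region genes, and H2-M3 of the M region stood at 0.62. Whether the roles differ from one another was not tested. With the S libraries alone 15 of 20 tested were higher, as were 32.4% of all genes, H2-T24 among them and H2-K1 not (adjusted p = 0.234). With the C libraries alone 8 of 21 were higher, against 28.6% of all genes; B2m, H2-D1, H2-K1, H2-Q4, H2-T22, H2-T23 and Nlrc5 lost their call with the C libraries alone, with adjusted p between 0.0605 and 0.259. Without STG replicate 1 and CTG replicate 1, the libraries with the most pituitary and bone marrow RNA, 10 of 21 were higher, against 33.8% of all genes; H2-D1, H2-K1, H2-Q4, H2-T22 and H2-T23 lost their call, and Cd74, the 3 class II chains and the H2-DM chains did not.

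Genes that serve the class I pathway outside the MHC set were mostly higher in TG as well. Beside the counts of this and the later lists, 36.2% of all genes were called higher and 35.0% lower, and lists this short rest on few calls. Of 7 genes of class I folding and peptide loading, 6 were higher and 1, the chaperone gene Canx, was lower (137 ± 3.28 FPKM in TG, 149.9 ± 6.63 in Sp5C). The peptide transporter genes Tap1 (8.63 ± 2.52 and 2.13 ± 0.896, log2 difference 1.63) and Tap2 (11.6 ± 1.68 and 4.63 ± 0.883, log2 difference 1.17) had the greatest differences of that list. All 5 genes of the immunoproteasome and its activator, which cut proteins into peptides that fit class I, were higher, with Psmb8 at 12.3 ± 3.12 and 3.11 ± 1.20 FPKM (log2 difference 1.70, limma adjusted p = 8.18e-06) and Psme2 at 24.3 ± 3.57 and 9.18 ± 1.73 (log2 difference 1.32). Of 4 class I-like genes, Fcgrt, Mr1 and Hfe were higher, and Cd1d1 was not called (limma adjusted p = 0.73). These means are ± SD with n = 6 libraries per tissue.

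Of 4 class II processing genes in the table, the proteases Lgmn, Ctsb and Ctsd were higher in TG, with log2 differences of 0.63, 0.78 and 0.69. Ctss, which trims the invariant chain in macrophages and dendritic cells, was lower in TG (19.6 ± 5.34 FPKM against 41.5 ± 22.01, SD, n = 6 libraries per tissue, log2 difference -0.95, limma adjusted p = 0.013). Ctss thus differed in the opposite direction to Cd74, whose product it cuts.

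Among 8 transcription factors that act on MHC promoters, 2 were higher in TG (Irf1 and Nfya), 3 were lower (Rfx5, Rfxap and Nfyc) and 3 were not called. Rfx5, a subunit of the complex that binds the X box, was at 2.06 ± 0.40 FPKM against 5.82 ± 0.35 (SD, n = 6 libraries per tissue, log2 difference -1.16, limma adjusted p = 1.22e-07). Irf1 was at 11.5 ± 1.58 and 3.499 ± 1.38 (log2 difference 1.52). Of 14 interferon-stimulated genes, 13 were higher in TG and Irgm1 was not called. Their median log2 difference was 1.41, and Oasl2 (28.1 ± 11.5 and 3.44 ± 1.26 FPKM, log2 difference 2.68) had the highest.

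Microglia and macrophage markers were called in both directions, where 36.2% of all genes were called higher and 35.0% lower. Of 13 microglia and macrophage markers 4 were higher in TG (Mrc1, Lyz2, Adgre1 and Cd68), 3 were lower (P2ry12, Tmem119 and Csf1r) and 6 were not called, with a summed level of 93.1 to 212 FPKM in TG and 55.4 to 185 in Sp5C. Mrc1, a gene of macrophages outside the brain tissue proper, was at 8.498 ± 0.78 and 1.93 ± 1.36 (SD, n = 6 libraries each), and the microglia gene Tmem119 at 1.56 ± 0.64 and 6.04 ± 1.55. Of the 7 dendritic cell markers only 2 were tested, Flt3 and Zbtb46, and of these 1 was higher and 1 lower in TG. Itgax, Xcr1, Clec9a, Cd209a and Ccr7 were under the filter. The list summed to 8.36 to 9.37 in TG and 7.34 to 9.70 in Sp5C, a sum in which opposite differences offset each other. The 4 B cell markers summed to 0.666 to 5.33 in TG, where CTG replicate 1 was highest, and to 0.223 to 0.759 in Sp5C, and the 6 T and NK cell markers to 1.43 to 4.50 and 0.104 to 1.46, and no gene of these 2 lists reached the filter. Endothelial markers, of which 1 was higher and 4 were lower in TG, summed to 40.7 to 56.6 and 64.4 to 77.9. The part of these cells in the tissue difference was not tested.

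The comparison of CTG with STG asks whether MHC RNA differed with the letter within the ganglion. No gene of the set was called among 21 tested, H2-Ke6 included, and none had an unadjusted p under 0.05, when 0.00775% of all genes were called higher, 0% lower, and 4.70% had an unadjusted p under 0.05. The groups of all 21 overlapped, where those of 10.8% of all genes did not. Adjusted p ran from 0.96 to 0.994 (limma, 12906 genes). B2m was at 275 ± 80.0 FPKM in STG and 284 ± 53.2 in CTG (SD, n = 3 libraries each), a log2 difference of 0.07 with a 95% interval from -0.50 to 0.63. The interval for H2-D1 ran from -0.51 to 1.16, for Cd74 from -0.37 to 1.05 and for H2-K1 from -2.55 to 3.19. Differences within these intervals could not be told from 0.

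The smallest unadjusted p of that comparison belonged to H2-DMb1, H2-DMa and Cd74. H2-DMb1 was at 3.86 ± 2.44 in STG and 2.04 ± 0.905 in CTG (log2 difference -0.61 ± 0.38, limma adjusted p = 0.96), with the spread set by STG replicate 1 at 6.66 FPKM, and without both STG replicate 1 and CTG replicate 1 the difference was 0.00407. H2-DMa differed by -0.13 ± 0.11 and Cd74 by 0.34 ± 0.29 on the log2 scale.

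The same contrast in the brainstem nucleus compares CSp5C with SSp5C. No gene was called among 19 tested, 1 had an unadjusted p under 0.05, and adjusted p ran from 0.915 to 0.978 (limma, 12690 genes), when 0.00788% of all genes were called higher, 0.0236% lower and 5.02% had an unadjusted p under 0.05. The one gene was Tapbp, at 14.3 ± 0.67 in SSp5C and 16.8 ± 1.51 in CSp5C (SD, n = 3 libraries each, log2 difference 0.22 ± 0.08, limma adjusted p = 0.915). Its groups did not overlap, as was true of 10.9% of all genes. Nlrc5 differed by 0.45 ± 0.27 and Cd74 by 1.15 ± 0.71, and both groups overlapped for each.

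The log2 difference was above 0 for 17 of the 19 genes, H2-K1 and H2-DMa being the others, as it was for 50.3% of all genes. It was above 0 for 14 of 19 without CSp5C replicate 1 and for 15 of 20 without SSp5C replicate 1, and the median over the genes went from 0.40 to 0.15 and 0.17. B2m was at 84.0 ± 27.3 FPKM in SSp5C and 139 ± 107 in CSp5C, and H2-D1 at 44.8 ± 16.7 and 81.3 ± 71.3 (SD, n = 3 libraries each). Without CSp5C replicate 1 the log2 difference went from 0.47 to -0.12 for B2m, from 0.51 to -0.18 for H2-D1 and from -0.51 to 0.36 for H2-K1. Without SSp5C replicate 1 it was 0.17 for B2m, 0.16 for H2-D1 and -0.54 for H2-K1. For Cd74 it went from 1.15 to 0.58, and without CSp5C replicate 3 it went to 1.94.

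**Figure D3:**
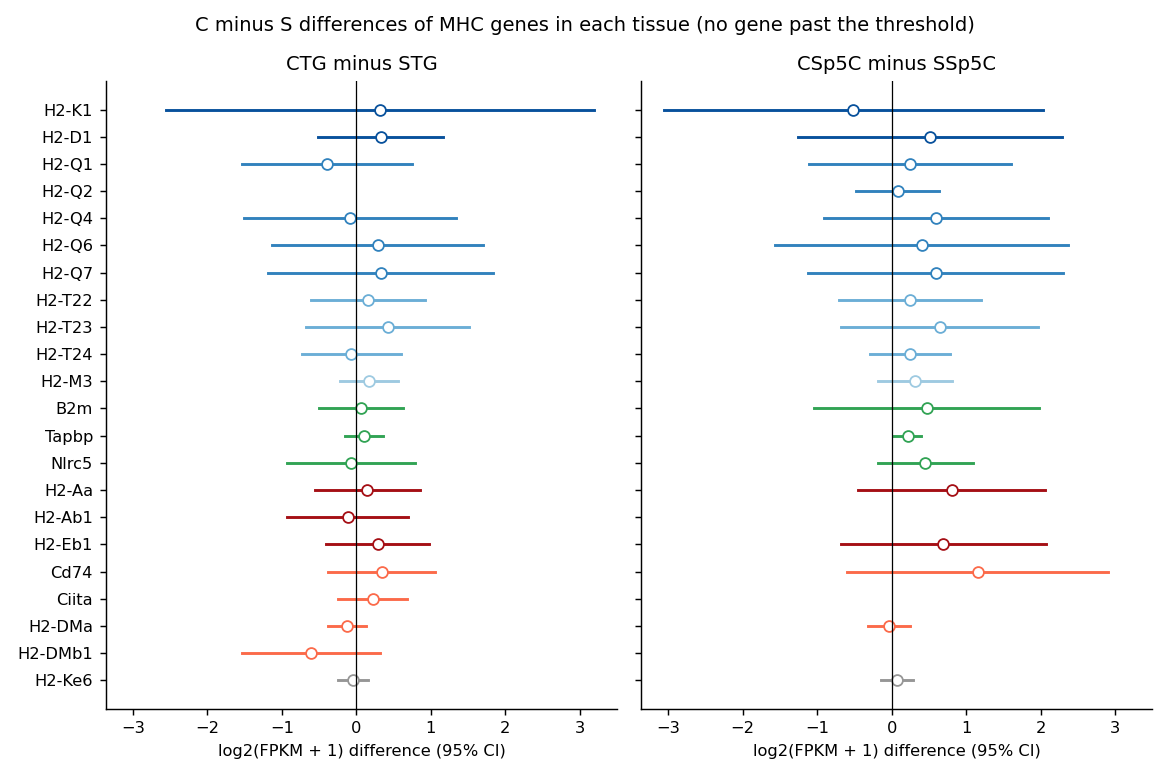
Log2(FPKM + 1) difference, C minus S, with its 95% confidence interval, for genes of the set tested in TG (left) and Sp5C (right), H2-Ke6 included. A missing point is a gene under the filter in that tissue. Every point is open because none passed the threshold, and the Sp5C interval of Tapbp is the one that leaves out 0.

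The difference between these effects, CTG minus STG less CSp5C minus SSp5C, was tested over all 12 libraries. None of 21 genes was called or had an unadjusted p under 0.05, when 0% of all genes were called in each direction and 5.41% had an unadjusted p under 0.05. The smallest unadjusted p belonged to H2-DMb1 (log2 difference -0.71 ± 0.47), H2-Ab1 (-0.84 ± 0.56) and H2-Q2 (0.55 ± 0.49), all with adjusted p over 0.91 (limma).

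Libraries of one group differed in their MHC RNA as a block. CSp5C replicate 1 had the highest value of the 6 Sp5C libraries for 14 of 20 MHC genes (H2-Ke6 left out), against 19.7% of all genes, and CSp5C replicate 3 had the lowest for 11 of the 20, against 20.4%. In TG, STG replicate 2 was the lowest of its group for 18 of the 20, against 43.5% of all genes, and CTG replicate 3 for 15, against 37.3%. The MHC genes of CSp5C replicate 1 stood a median of 0.61 above their group mean on the log2 scale, and those of CSp5C replicate 3 stood at -0.79, while the medians over all genes were 0.00246 and 0.000312. The highest and lowest libraries of a group are a description, and no cause was tested.

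**Figure D4:**
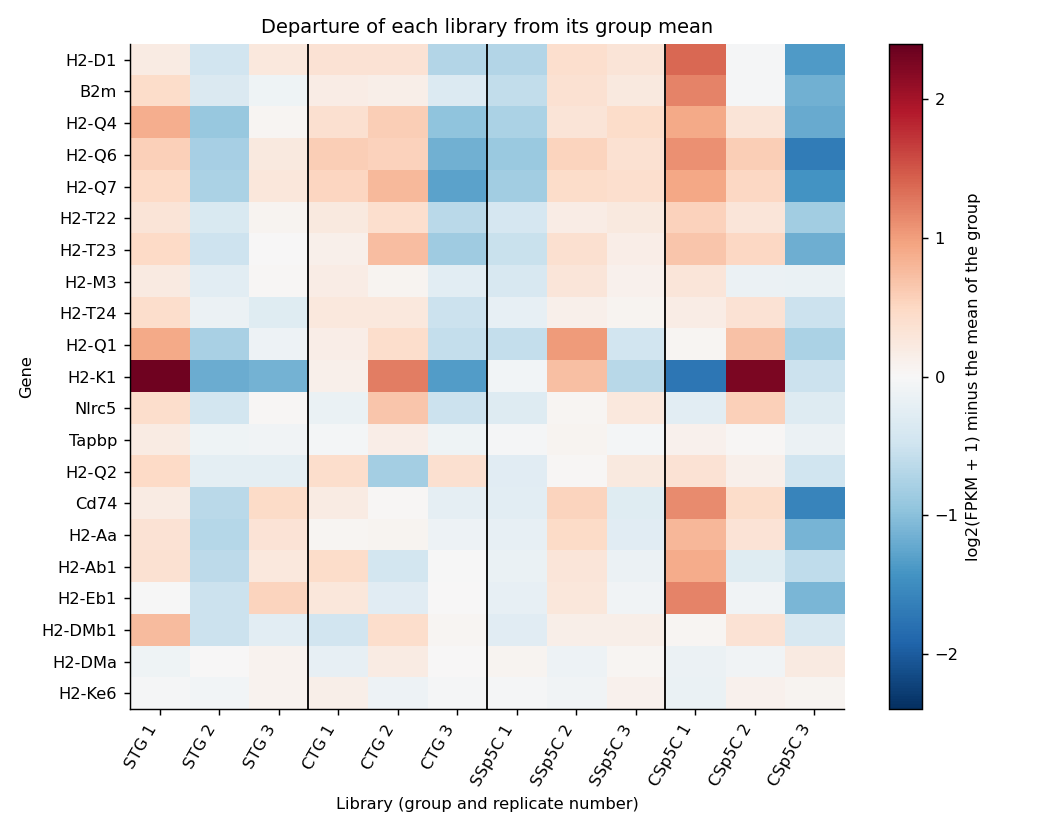
Log2(FPKM + 1) of 21 genes of the set in each library minus the mean of its group (colour, red above and blue below), with lines between the 4 groups. In CSp5C, replicate 1 is red and replicate 3 blue for most class I and class II genes, H2-K1 goes apart from H2-D1, and H2-Ke6 stays near 0 throughout.

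Other genes differed between these libraries too. The 13 microglia and macrophage markers summed to 185 FPKM in CSp5C replicate 1 and 55.4 in CSp5C replicate 3, the highest and lowest of Sp5C, where the other four lay between 87.4 and 114. Ctss was at 84.5 in CSp5C replicate 1, 21.2 in CSp5C replicate 3 and 33.0 to 40.3 in the other four. The part of these cells in the MHC values of the pair was not tested. A second pattern fell on other libraries: the libraries numbered 2 of both C groups had the highest Nlrc5 and Ciita of their tissue, and also the highest Gbp2, Iigp1, Igtp and Irf1, genes known to respond to interferon gamma and chosen here after their values were seen. Of the 14 interferon-stimulated genes as a list, 10 were highest of TG in STG replicate 1 and 3 in CTG replicate 2, and in Sp5C 7 were highest in CSp5C replicate 1 and 7 in CSp5C replicate 2. Of all genes, 24.4% were highest of TG in STG replicate 1 and 9.74% in CTG replicate 2. In Sp5C, 19.7% of all genes were highest in CSp5C replicate 1 and 12.3% in CSp5C replicate 2. Iigp1 was at 13.9 FPKM in CSp5C replicate 2 against 1.49 to 3.47 in the other Sp5C libraries, and at 23.9 in CTG replicate 2 against 6.10 to 15.9 in the other TG libraries. B2m and H2-D1 were not at their highest in CSp5C replicate 2 but in CSp5C replicate 1.

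After subtracting group means, most MHC genes of one library tended to depart together, and H2-DMa did not. Over the 12 libraries, Pearson's r had a median of 0.73 over the 91 pairs of class I genes, 0.59 over the 84 pairs of a class I with a class II gene and 0.41 over the 15 pairs of class II genes, as a description of values that share the same libraries. H2-Q7 and H2-T22 had the highest r (0.993), Cd74 and H2-Aa had 0.982, and B2m and H2-D1 had 0.965. H2-K1 and H2-D1, by contrast, had 0.05. H2-DMa had a negative r with every other class II gene, from -0.14 with H2-DMb1 to -0.72 with H2-Ab1, and with 13 of 14 class I genes, down to -0.82 with H2-Q2. Pairs of H2-Ke6 with class I genes had a median of -0.13.

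Outside the set, the genes most like Cd74 in these departures were Swsap1, Ccdc3, Bace2, Mterf3 and Stam2, with r from 0.948 to 0.965, among 13060 genes compared over 12 libraries. Those most like H2-K1 were Dusp6, Plk2, Rtl5, Adsl and Tmod2, with r from 0.915 to 0.955. Both lists are the top of a search over 13060 genes in only 12 libraries. Such a search can give a high r for unrelated genes, and whether these genes vary with Cd74 or H2-K1 was not tested.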

How the data were processed

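Trizol-extracted RNA was depleted of ribosomal RNA and made into stranded libraries, per the labels' protocols. The authors deposited FPKM values per transcript; the submitters' processing notes name HISAT2, StringTie 1.3.1 and Cuffdiff 2.1.1, with build and annotation not given in the sources used here. Depth is unknown, and lncRNA tables were not used here. Columns were matched to samples by name, and all were matched.

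Transcripts were summed per gene identifier. Genes with a mean of at least 1 FPKM over the libraries compared were tested on log2(FPKM + 1) with limma 3.58.1 (R 4.3.3, and the data.table package of version 1.17.8; trended, robust moderation). Tests were two-sided, with Benjamini-Hochberg adjustment over all genes tested and a threshold of 0.05. The fit was checked on simulated data. The tissue contrast and the difference of effects used 12 libraries, each C minus S contrast the 6 of its tissue. Intervals are at 95%, and an FPKM of 0 is reported as listed at 0.

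Every MHC gene in the tissue test was named; in the letter contrasts, the 3 with the smallest p were named, and B2m, H2-K1, H2-D1 and Cd74 always; other pathway genes were limited to 4 per list by smallest p, with markers, genes of library patterns and exceptions within a list named after their values were seen. One gene of the list of transcription factors is not reported here. The genes and lists were chosen with earlier results of these data known. Alternatives were other pseudocounts, filters, scalings, transcript choice, moderation, a replicate block and left-out libraries.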

Additional observations from a re-analysis of the deposited data

Results flagged for a closer look

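For each of the 21 genes of the set tested, H2-Ke6 included, the 6 libraries of a tissue were searched by Dixon's ratio. The search was for a library far from the rest. In 7 of the 42 sets of 6 libraries one was. The cutoff flags about 1 in 20 sets of independent values with a normal spread. These were untransformed FPKM of genes that tended to depart together, so the count cannot be weighed against that rate. In Sp5C, CSp5C replicate 1 was far above the rest for 4 genes: B2m at 256.7 FPKM (next 109.8), H2-D1 at 160.8 (next 60.1), H2-Eb1 at 7.24 (next 2.42) and H2-Ab1 at 3.26 (next 0.866). CSp5C replicate 2 was far above the rest for Nlrc5, at 2.49 (next 1.07). In TG, STG replicate 1 was far above the rest for H2-DMb1, at 6.66 (next 2.95), and for H2-Q1, at 4.85 (next 2.17).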

How the results depend on the processing

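The number of MHC genes higher in TG was 15 with pseudocounts of 0.1 and 0.5, median-ratio scaling, quantile normalization, plain moderation and the S libraries alone; it was 18 of 34 tested with no filter (30.6% of all genes), 11 of 14 with a minimum mean of 5 FPKM (36.7%), 13 of 18 with the highest transcript only (32.5%), 8 with the C libraries alone, 12 to 17 when 1 library was left out, and 10 without STG replicate 1 and CTG replicate 1, an alternative chosen after seeing the data. The 1 gene lower went to 0 with the C libraries alone, and with the minimum of 5 FPKM, the highest transcript only and the S libraries alone, where it was under the filter and not tested. No MHC gene was called in the letter contrasts or their difference under any setting. In the tissue contrast H2-Ke6 turned to 0.0526 with the highest transcript only and 0.0281 with the S libraries alone, and ran from -0.0673 to 0.00172 when 1 library was left out, and H2-Q1 turned to -0.0396 with the C libraries alone; H2-K1 lost its call with no filter (adjusted p = 0.0544) and with the highest transcript only (0.0967). Of CTG minus STG, H2-K1 turned to -0.87 with the highest transcript only and ran from -0.29 to 1.48, and B2m from -0.11 to 0.29, when 1 library was left out; H2-DMb1 turned to 0.0041 without both libraries. Leaving out 1 library gave -0.12 to 1.05 for B2m, -1.64 to 0.36 for H2-K1 and -0.18 to 1.20 for H2-D1 in CSp5C minus SSp5C. The cause was not tested. No setting moved the median of all genes by over 0.1.

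Same-numbered libraries correlated, after subtracting group means, at -0.15 to 0.19 between STG and CTG and at -0.13 to 0.10 between SSp5C and CSp5C. Between STG and SSp5C they correlated at -0.20 to -0.02, whereas every same-numbered pair of CTG and CSp5C correlated above 0.1 (0.23 to 0.38). Low correlations cannot show that the numbers do not pair libraries. The main tests, those of tissue and of the difference of effects included, treated all libraries as independent. The replicate block joined the same-numbered libraries of all 4 groups, and a pairing of tissues within each letter was not fitted. With that block 15 genes were higher and 1 was lower in TG, but H2-D1 missed the threshold (limma adjusted p = 0.0546) and H2-T24 passed it (0.037).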
